A study of Mus musculus with 32 samples.

Results

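The genes of the AMPA and NMDA type glutamate receptor subunits were followed in the spinal cord of G93A mice, a model of amyotrophic lateral sclerosis (ALS), and of wildtype (WT) mice. The 10 genes were chosen by name: Gria1, Gria2, Gria3 and Gria4, which encode the AMPA receptor subunits, and Grin1, Grin2a, Grin2b, Grin2c, Grin2d and Grin3a, which encode NMDA receptor subunits. They are 10 of the 42524 genes in the table, each was found by its Ensembl identifier, and all 10 passed the filter on low counts at both ages. RNA-seq was done on spinal cord from 32 mice, 4 in each of 8 groups. The groups were WT and G93A mice labelled 90 and 155 days, each either untreated or given OKN-007, a nitrone, in the drinking water. These labels come from the sample titles and are read here as ages. The paper gives a slightly later age for its younger group, and this difference was not resolved. G93A mice carry the human SOD1 gene with the G93A mutation under its own human promoter, so the transgene is not confined to neurons, and the WT controls were littermates on the same C57BL/6J background. The mice were predominantly female, the ages were separate cohorts, and the labels name neither the level of the cord sampled nor a batch. An age difference therefore cannot be told apart from a difference between cohorts.

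Glutamate is the main excitatory transmitter of the spinal cord, and both receptor types are cation channels built as tetramers. AMPA receptors carry the fast synaptic current, and they pass little calcium when they hold the subunit made from edited Gria2 mRNA. NMDA receptors need the Grin1 product. With subunits of the Grin2 genes it forms receptors that bind glutamate and a co-agonist (glycine or D-serine) and pass calcium. Excess calcium entry through these receptors is a long-discussed route of motor neuron injury in ALS.

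The starts of 3 of these genes are shown because their transcripts were lower in G93A than WT mice at 155 days, as given below. Grin1 is the obligatory NMDA subunit, Gria4 had the largest difference, and Gria2 sets calcium entry. Each stretch holds 250 bases before and 50 bases after the RefSeq transcription start (RefSeq, GRCm38.p6, minus strand, written 5′ to 3′ along the gene), at chr2:25319138-25319437 for Grin1, chr9:4796185-4796484 for Gria4 and chr3:80802786-80803085 for Gria2. Capitals mark the GC box GGGCGG, searched on both strands.
Grin1: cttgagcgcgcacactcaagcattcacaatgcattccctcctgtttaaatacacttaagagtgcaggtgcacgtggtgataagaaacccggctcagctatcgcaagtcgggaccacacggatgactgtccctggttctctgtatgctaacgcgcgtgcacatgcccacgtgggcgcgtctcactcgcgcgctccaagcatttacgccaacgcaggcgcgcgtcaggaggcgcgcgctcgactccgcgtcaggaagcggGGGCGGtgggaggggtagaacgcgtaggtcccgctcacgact
Gria4: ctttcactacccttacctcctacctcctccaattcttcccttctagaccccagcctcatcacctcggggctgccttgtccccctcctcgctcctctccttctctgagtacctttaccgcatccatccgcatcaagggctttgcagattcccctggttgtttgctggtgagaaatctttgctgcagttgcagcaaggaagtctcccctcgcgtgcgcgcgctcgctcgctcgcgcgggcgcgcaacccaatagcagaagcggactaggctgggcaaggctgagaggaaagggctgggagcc
Gria2: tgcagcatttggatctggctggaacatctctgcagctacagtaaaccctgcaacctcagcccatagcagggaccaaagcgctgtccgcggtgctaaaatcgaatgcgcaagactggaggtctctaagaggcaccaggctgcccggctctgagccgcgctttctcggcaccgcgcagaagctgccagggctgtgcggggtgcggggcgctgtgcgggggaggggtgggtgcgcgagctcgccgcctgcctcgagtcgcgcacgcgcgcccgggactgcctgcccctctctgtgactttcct
The 3 stretches are rich in G and C, at 60.7%, 59.7% and 65.7%, where the median over all promoters in the table was 52.7%. They hold 33, 17 and 26 CpG dinucleotides. Of the 10 genes, 5 had a promoter in the table (also Grin2c and Grin2d). The GC box was found once in the Grin1 stretch, after the start, and 3 times in that of Grin2c, and in 35.7% of the 32851 promoters. The letters TTCAGCACC, part of the element bound by the neuronal repressor REST, was in 0 of the 5 and in 0.371% of all promoters, and TATAAA was in 0 of the 5 and in 13.6% of all. These counts describe letters within 300 bases and say nothing of binding.

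The libraries held 19701722 to 30138257 gene counts each, and levels are given as CPM, which scales the counts of a library to a common size with TMM factors. The lowest count of any of the 10 genes in any mouse was 331, for Grin2c, so no gene was near the floor. Counting error was not below the spread of mice in every group, as for Grin2c in untreated G93A mice at 155 days (16.1 ± 0.487 CPM, SD, n = 4). Some libraries stood apart. Caudal Hox genes, which mark the level along the cord, summed to 92.5 to 161 CPM in untreated WT mice at 155 days and to 4.57 to 81.3 CPM in untreated G93A mice, and 7 of the 32 mice had a caudal Hox score under 1 (mice 9, 10 and 13 among the G93A mice at 155 days). The liver gene Alb reached 139 and 83.8 CPM in G93A mice 12 and 15 at 155 days. Schwann cell markers summed to 1882 CPM in 1 untreated WT mouse at 90 days, where the lowest mouse of that group had 172.

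At 155 days, 8 of the 10 genes were lower in untreated G93A than in untreated WT mice by edgeR's quasi-likelihood test at a Benjamini-Hochberg adjusted p under 0.05, and 0 were higher. Over all 18675 genes tested, 18.2% were called lower. A decrease between genotypes here means a level lower than in WT mice of the same age, not a fall with age. The log2 fold changes of the 10 genes ran from -0.90 for Gria4 to -0.07 for Gria1, with a median of -0.54, where the median over all genes was 0.00. In 9 of the 10 genes every G93A mouse lay below every WT mouse, a separation seen for 17.7% of all genes. The count was also 8 without the mice of low caudal Hox score or without the mice high in Alb, both chosen after seeing the data, and 7 with the Hox score as a covariate. The untreated G93A mice kept had Hox scores of 1.43 and 1.54, and untreated WT mice 1.52 to 2.80. Leaving out mice of low score therefore did not even out the level of cord. In bulk tissue, fewer cells of a type and less RNA per cell cannot be told apart.

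**Figure D1:**
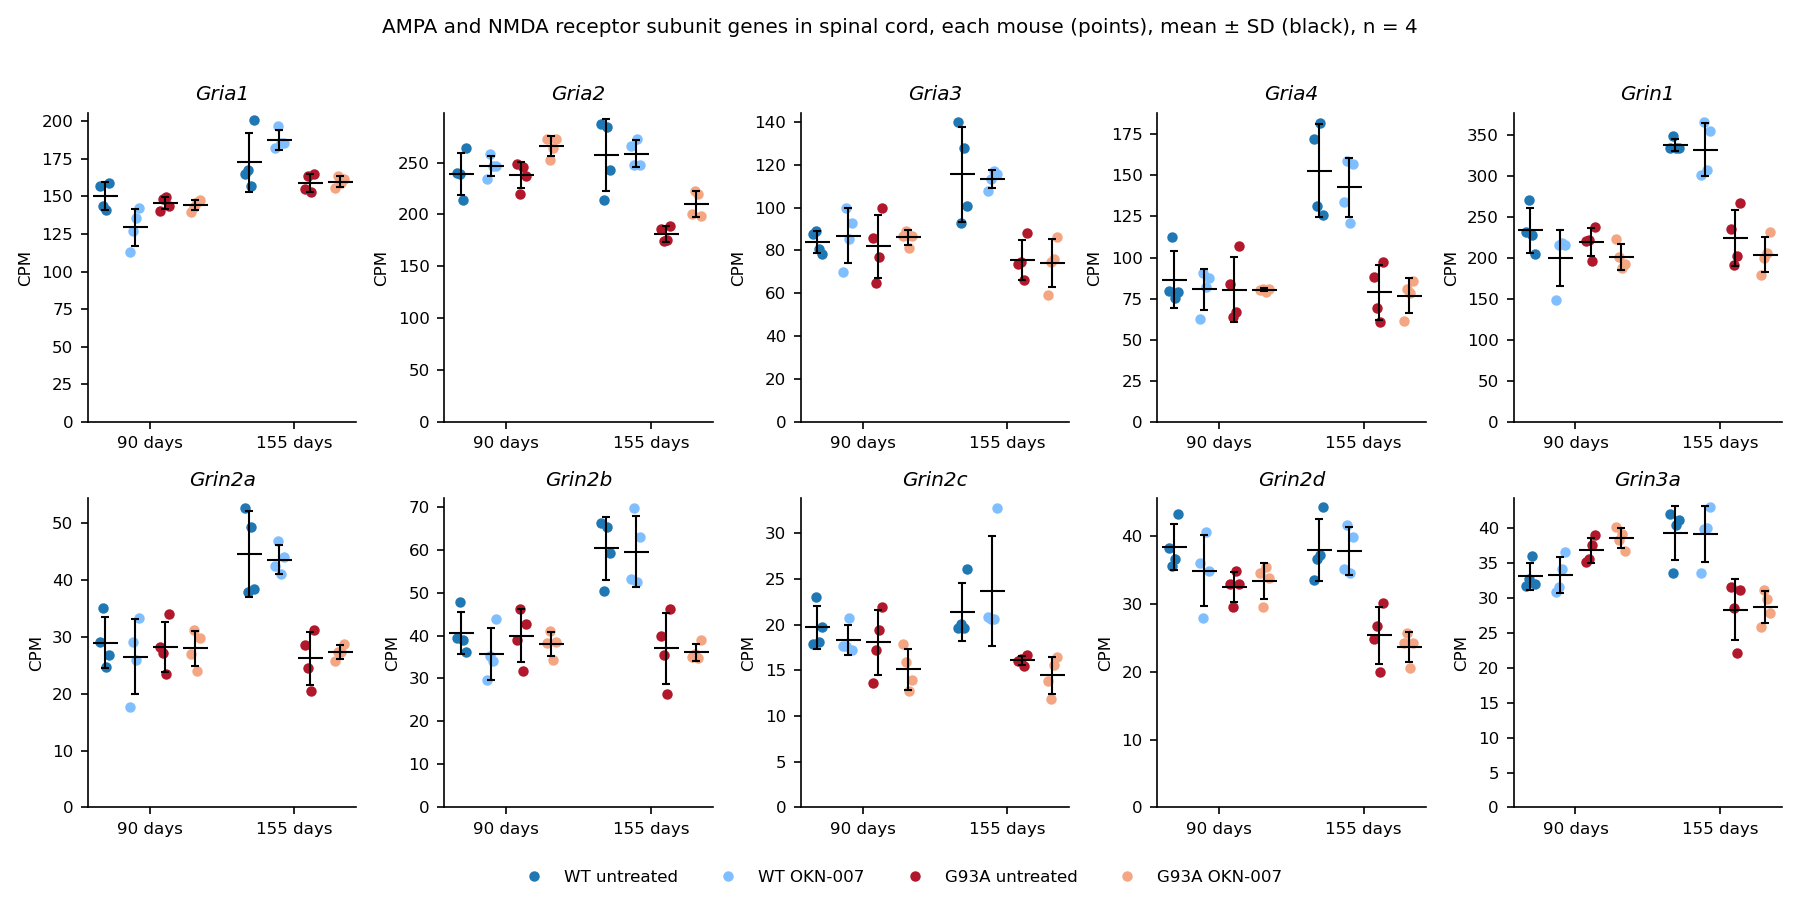
CPM (vertical axes, from 0) of the 10 subunit genes in each mouse (points) of the 8 groups, with the mean and SD of 4 mice in black. At 155 days the G93A points lie below the WT points of the same treatment, except in untreated mice for Gria1, where G93A mice ran from 153 to 165 CPM and WT mice from 157 to 201.0.

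Among the AMPA receptor genes, Gria4, which encodes a subunit with fast kinetics, had the largest difference between genotypes. Its levels were 172, 131, 182 and 126 CPM in the 4 untreated WT mice and 87.9, 69.1, 60.6 and 97.4 CPM in the 4 untreated G93A mice at 155 days. The genotypes did not overlap, although both spread widely, with G93A mouse 11 lowest. It fell by 46.5% (log2 fold change -0.90, SE 0.15, edgeR adjusted p = 0.000104).

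Gria2, the subunit that blocks calcium entry, was at 287, 214, 284 and 243 CPM in untreated WT and at 186, 174, 175 and 189 CPM in untreated G93A mice. The 4 G93A mice lay close together and all lay below the lowest WT mouse. Gria2 was lower by 0.46 on the log2 scale (SE 0.08, edgeR adjusted p = 0.000231). Gria3, an X-linked AMPA subunit gene, was at 140.1, 92.8, 128 and 101 CPM in untreated WT and 73.6, 74.4, 66.0 and 88.0 CPM in untreated G93A mice. The gap was narrow, since WT mouse 2 and G93A mouse 12 differed by less than the spread within either group. Its log2 fold change was -0.56 (SE 0.12, edgeR adjusted p = 0.00112).

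Gria1, the subunit best known from activity-dependent insertion at synapses, was the AMPA gene with the smallest difference. Untreated WT mice had 165, 167, 157 and 201.0 CPM and untreated G93A mice 155, 164, 153 and 165 CPM. The groups overlapped, and WT mouse 4 stood above the rest. The log2 fold change was -0.07 (SE 0.07, edgeR adjusted p = 0.453), and it was 0.027 without WT mouse 4 and 0.032 with caudal Hox score added as a covariate, so its sign was not settled.

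Of the NMDA receptor genes, Grin1, required in every NMDA receptor, was the most abundant. It was at 334, 348, 334 and 334 CPM in untreated WT mice and 235, 192, 203 and 267 CPM in untreated G93A mice at 155 days. The WT mice were nearly level and the G93A mice varied more, all well below them. Grin1 fell by 31.4% (log2 fold change -0.54, SE 0.10, edgeR adjusted p = 0.000350).

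Grin2a and Grin2b encode the glutamate-binding subunits most used in the adult and the young nervous system, respectively. Grin2a was at 52.6, 38.0, 49.3 and 38.4 CPM in untreated WT and 28.5, 24.5, 20.6 and 31.3 CPM in untreated G93A mice, with no overlap. It had the second largest decrease of the 10 (log2 fold change -0.71, SE 0.12, edgeR adjusted p = 9.64e-05). Grin2b was at 66.1, 50.4, 65.3 and 59.2 CPM in untreated WT and 39.8, 35.5, 26.4 and 46.3 CPM in untreated G93A mice, again with G93A mouse 11 lowest and mouse 12 highest. Its log2 fold change was -0.65 (SE 0.13, edgeR adjusted p = 0.000688).

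Grin2d, a subunit of slow NMDA currents, was at 33.5, 36.7, 37.3 and 44.4 CPM in untreated WT and 24.9, 26.7, 19.99 and 30.1 CPM in untreated G93A mice. All G93A mice were below all WT mice, and Grin2d was lower by 0.53 on the log2 scale (SE 0.11, edgeR adjusted p = 0.00107). Adding the Hox score as a covariate ended this call (adjusted p = 0.0823). Grin3a, whose product lowers the calcium permeability of NMDA receptors, was at 42.1, 33.5, 40.5 and 41.1 CPM in untreated WT and 31.5, 28.6, 22.1 and 31.1 CPM in untreated G93A mice. The groups did not overlap, with a log2 fold change of -0.42 (SE 0.11, edgeR adjusted p = 0.00409).

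Grin2c, best known from cerebellar granule cells, was the least counted of the 10. It was at 19.6, 20.1, 19.6 and 26.1 CPM in untreated WT and 16.01, 16.3, 15.5 and 16.7 CPM in untreated G93A mice. Every G93A mouse was lower, but the difference missed the threshold (log2 fold change -0.36, SE 0.14, edgeR adjusted p = 0.0534). Grin2c passed under several other settings of the test, with an adjusted p of 0.0341 in DESeq2, and under the looser threshold of 0.10. In the 8 fits that left out a single mouse it passed in 0. There the log2 fold change ran from -0.41 to -0.23 and the edgeR adjusted p reached 0.229. Grin2c also missed the threshold under the stricter filter on counts and after adjustment for the Hox score. The same held without the mice high in Alb or low in Hox score.

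In OKN-007 treated mice of the same age, 9 of the 10 genes were lower in G93A than in WT mice, where 18.2% of all genes were called lower, and every treated G93A mouse lay below every treated WT mouse in 10 of 10 genes, against 25.2% of all genes. The count was 9 without the mice high in Alb, 8 without the mice of low Hox score and 6 with the Hox score as a covariate, which left Gria2, Grin2c and Grin3a with adjusted p of 0.0840, 0.0513 and 0.0530. The treated G93A mice kept had Hox scores of 1.36 to 2.03, and treated WT mice 2.36 to 2.69, still without overlap.

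Gria4 stood at 134, 158, 121 and 157 CPM in treated WT and at 61.6, 81.0, 78.7 and 85.9 CPM in treated G93A mice. As in untreated mice it had the largest decrease (log2 fold change -0.82, SE 0.15, edgeR adjusted p = 0.000230). Grin1 was at 301, 366, 307 and 354 CPM in treated WT and 179, 200.2, 206 and 231 CPM in treated G93A mice, far apart in every mouse. Its log2 fold change was -0.63 (SE 0.10, edgeR adjusted p = 7.15e-05).

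Gria2 was at 266, 247, 273 and 248 CPM in treated WT and 199.9, 222, 219 and 198 CPM in treated G93A mice. The groups did not overlap (log2 fold change -0.23, SE 0.08, edgeR adjusted p = 0.0339). Beside the -0.46 of untreated mice, the genotype by treatment interaction of Gria2 was 0.23 (SE 0.12, unadjusted p = 0.0615, edgeR adjusted p = 0.9998). The call was lost in 4 of the 8 fits that left out a single mouse, with an adjusted p of up to 0.0925 (WT mouse 5 or 7, G93A mouse 13 or 16), and without the mice of low Hox score (0.0773). Gria1 was at 182, 197, 185 and 185 CPM in treated WT and 155, 164, 159 and 162 CPM in treated G93A mice. These groups did not overlap, yet the log2 fold change of -0.16 (SE 0.07) had an edgeR adjusted p of 0.0914.

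The other 6 genes were lower by 0.37 (Grin3a) to 0.65 (Grin2b) on the log2 scale in treated G93A than in treated WT mice. Gria3 was at 108, 113, 117 and 116 CPM in treated WT and 59.3, 74.7, 76.0 and 86.3 CPM in treated G93A mice, which differed in every mouse (log2 fold change -0.54, SE 0.12, edgeR adjusted p = 0.00136). Grin2a was at 42.5, 46.9, 41.0 and 44.0 against 25.7, 27.3, 27.3 and 28.8 CPM, a tighter set of mice than the untreated ones. Grin2b was at 53.2, 69.7, 52.3 and 62.9 against 34.9, 35.8, 34.8 and 38.9 CPM, with the treated G93A mice almost level.
Grin2c was at 20.8, 20.6, 20.6 and 32.8 CPM in treated WT and 13.9, 11.9, 15.6 and 16.4 CPM in treated G93A mice. It passed the threshold here (log2 fold change -0.64, SE 0.14, edgeR adjusted p = 0.00141), with WT mouse 8 far above its group. Grin2d was at 35.2, 41.6, 34.5 and 40.0 against 24.2, 25.7, 20.6 and 24.3 CPM. Grin3a was at 33.6, 39.9, 40.0 and 43.1 against 25.9, 31.2, 29.8 and 27.9 CPM, the narrowest gap of the 6.

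With both treatments averaged, 9 of the 10 genes were lower in G93A mice at 155 days (25.8% of all genes), in a comparison that uses the same mice as those above. Gria1 had a log2 fold change of -0.11 (SE 0.05, edgeR adjusted p = 0.0653).

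**Figure D2:**
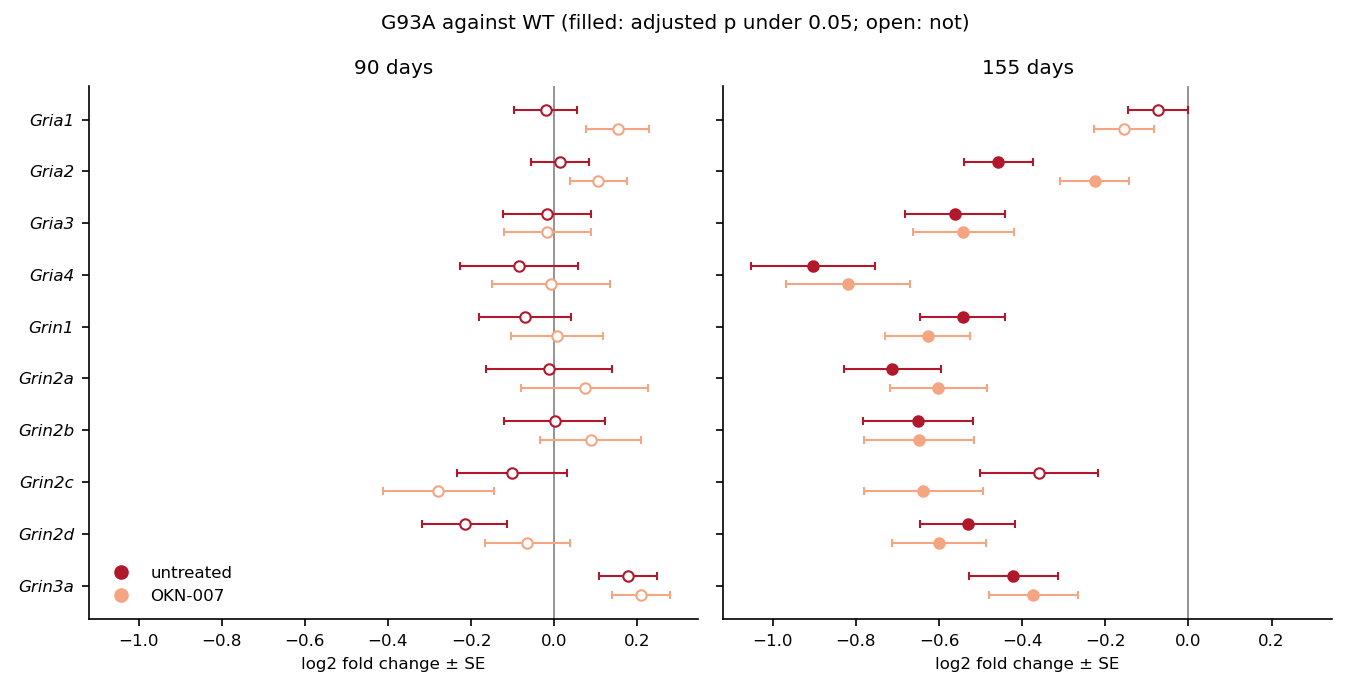
Log2 fold change of G93A against WT mice with its standard error (horizontal axis) for each gene, at 90 days (left) and 155 days (right), in untreated (dark red) and OKN-007 treated mice (orange), with filled points past the threshold. At 90 days all points are open and lie between -0.28 and 0.21, and at 155 days 8 untreated and 9 treated points are filled.

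At 90 days the genotypes were close. In untreated mice 0 of the 10 genes were called by edgeR's quasi-likelihood test (0% of all genes), 2 had an unadjusted p under 0.05 (5.96% of all genes), and DESeq2 called 0 of the 10. In treated mice 0 of the 10 were called (0% of all genes), with 1 at an unadjusted p under 0.05 (3.95% of all genes) and 0 by DESeq2. With treatments averaged 0 were called by edgeR and by DESeq2 (0.0265% of all genes by edgeR), with 1 at an unadjusted p under 0.05 (6.61% of all genes). The log2 fold changes ran from -0.22 to 0.18 in untreated and from -0.28 to 0.21 in treated mice.

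Gria4 was at 79.5, 113, 75.2 and 78.8 CPM in untreated WT and 84.0, 63.9, 67.1 and 107 CPM in untreated G93A mice at 90 days. The groups overlapped fully, with 1 high mouse in each. Grin1 was at 231, 271, 228 and 205 CPM in untreated WT and 221, 222, 196 and 237 CPM in untreated G93A mice, also overlapping. Gria2 was at 239.7, 239, 214 and 264 against 248, 220.0, 246 and 237 CPM.
Grin3a was the gene nearest to a call at this age. It was at 31.7, 32.7, 36.0 and 31.98 CPM in untreated WT, 35.2, 35.6, 37.6 and 39.0 CPM in untreated G93A, 30.9, 31.6, 34.1 and 36.6 CPM in treated WT and 40.1, 38.2, 39.2 and 36.7 CPM in treated G93A mice. G93A mice tended to lie above WT mice, opposite to 155 days, and the treated groups did not overlap. With treatments averaged the log2 fold change was 0.19 (SE 0.05, unadjusted p = 0.000987), and it did not pass adjustment over all genes (edgeR adjusted p = 0.258).

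OKN-007 changed none of the 10 genes past the threshold. Of the 10 genes, 0 were called in older and 0 in younger G93A mice, 0 and 0 in WT mice, and in the genotype by treatment interaction 0 and 0, each against 0% of all genes by edgeR. DESeq2 also called 0 of the 10 in all 6 comparisons. At an unadjusted p under 0.05 there was 1 gene in G93A mice at 155 days (Gria2; 4.04% of all genes) and 1 in WT mice at 90 days (Gria1, log2 fold change -0.21, SE 0.07, unadjusted p = 0.0135; 4.07% of all genes). There were 0 in WT mice at 155 days (2.94% of all genes), in G93A mice at 90 days (5.56%) and in the interaction at 155 and 90 days (2.34% and 2.81%).

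Gria2 had the largest log2 fold change with treatment in G93A mice at 155 days, with 198 to 222 CPM in treated and 174 to 189 CPM in untreated mice, as listed above. The groups did not overlap, as in 1.88% of all genes in that direction, and the log2 fold change was 0.22 (SE 0.08, unadjusted p = 0.0149, edgeR adjusted p = 0.9996). At 90 days Gria2 was at 248, 220.0, 246 and 237 CPM in untreated and at 273, 253, 264 and 273 CPM in treated G93A mice. Again the treated mice were all higher (1.72% of all genes), with a log2 fold change of 0.14 (SE 0.07, unadjusted p = 0.0560, edgeR adjusted p = 0.837). In WT mice the corresponding values were -0.01 (SE 0.08) for the older and 0.05 (SE 0.07) for the younger groups. The difference of Gria2 with OKN-007 failed correction at both ages. The other 9 genes had log2 fold changes between -0.15 and 0.06 in G93A mice at 155 days, with standard errors of 0.07 to 0.15.

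Between 90 and 155 days, 7 of the 10 genes rose in untreated WT mice (15.3% of all genes higher), and 6 rose in treated WT mice (17.8%). In untreated G93A mice 3 were lower at 155 days (12.8% of all genes lower) and 0 higher, and in treated G93A mice 3 were lower (13.1%) and 1, Gria1, higher (19.8%). These comparisons share their mice with the genotype comparisons. The count in untreated and treated WT mice was 6 and 7 with the Hox score as a covariate, and again 6 and 7 without the mice of low Hox score.

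Caudal Hox genes also differed between the ages. In untreated WT mice they summed to 19.6 to 104 CPM at 90 days and 92.5 to 161 CPM at 155 days, and edgeR called 0 of 11 with age (0 at an unadjusted p under 0.05; median log2 fold change 0.77). In treated WT mice the sums were 22.8 to 70.9 and 133 to 179 CPM, with no overlap, and 8 of 11 Hox genes were called higher (median 3.83). In untreated G93A mice 4 of 11 were called lower (median -1.55). The part of the Hox difference in the age differences of the subunit genes was not tested.

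Gria4 in WT mice had the largest rise with age, from the 90-day values of 79.5, 113, 75.2 and 78.8 CPM to 126 to 182 CPM. Every older WT mouse was above every younger one, and the log2 fold change was 0.83 (SE 0.16, edgeR adjusted p = 0.000660). In untreated G93A mice Gria4 averaged 80.5 ± 19.7 CPM at 90 days and 78.8 ± 16.9 CPM at 155 days (SD, n = 4 each), with a log2 fold change of -0.01 (SE 0.16).
Grin1 rose in untreated WT mice from 234 ± 27.4 to 338 ± 7.17 CPM (SD, n = 4 each; log2 fold change 0.54, SE 0.11, edgeR adjusted p = 0.00115), while G93A mice had 219 ± 17.1 and 224 ± 34.1 CPM. Grin2a, Grin2b and Gria3 also rose in untreated WT mice, by 0.63, 0.58 and 0.47 on the log2 scale, and none of the 3 passed in untreated G93A mice, where the values were -0.09, -0.09 and -0.09. Gria1 and Grin3a rose in untreated WT mice by 0.21 and 0.26 (edgeR adjusted p = 0.0246 and 0.0389), calls that 3 and 6 of the 8 fits without a single mouse did not keep. Gria1 missed the threshold also with the Hox score as a covariate (adjusted p = 0.0517) and without the mice of low Hox score (0.121). In treated WT mice Gria1 averaged 129 ± 12.5 CPM at 90 days and 187 ± 6.64 CPM at 155 days (SD, n = 4 each). This rise kept its call in the 8 fits without a single mouse, at 0.47 to 0.58 (highest edgeR adjusted p = 0.000107).

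Gria1 in treated G93A mice had 140 to 147 CPM at 90 days and 155 to 164 CPM at 155 days, with no overlap (log2 fold change 0.19, SE 0.07, edgeR adjusted p = 0.0410). This call was lost in all 8 fits that left out a single mouse, and in DESeq2 (adjusted p = 0.0555), with RLE factors (0.0745) and with upper quartile factors (0.355).

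Gria2 averaged 239 ± 20.3 and 257 ± 34.7 CPM at the younger and older age in untreated WT mice and 238 ± 12.9 and 181 ± 7.51 CPM in untreated G93A mice (SD, n = 4 each). The WT difference was within the spread of the mice, with a log2 fold change of 0.11 (SE 0.07, edgeR adjusted p = 0.275), and in G93A mice Gria2 fell by 0.37 (SE 0.07, edgeR adjusted p = 0.000183). Grin3a and Grin2d fell in untreated G93A mice as well, by 0.36 (SE 0.09, edgeR adjusted p = 0.00332) and 0.34 (SE 0.11, edgeR adjusted p = 0.0172). The call of Grin2d was lost without mouse 11 of either age, without the mice of low Hox score (adjusted p = 0.0938) and with the Hox score as a covariate (0.0773).

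**Figure D3:**
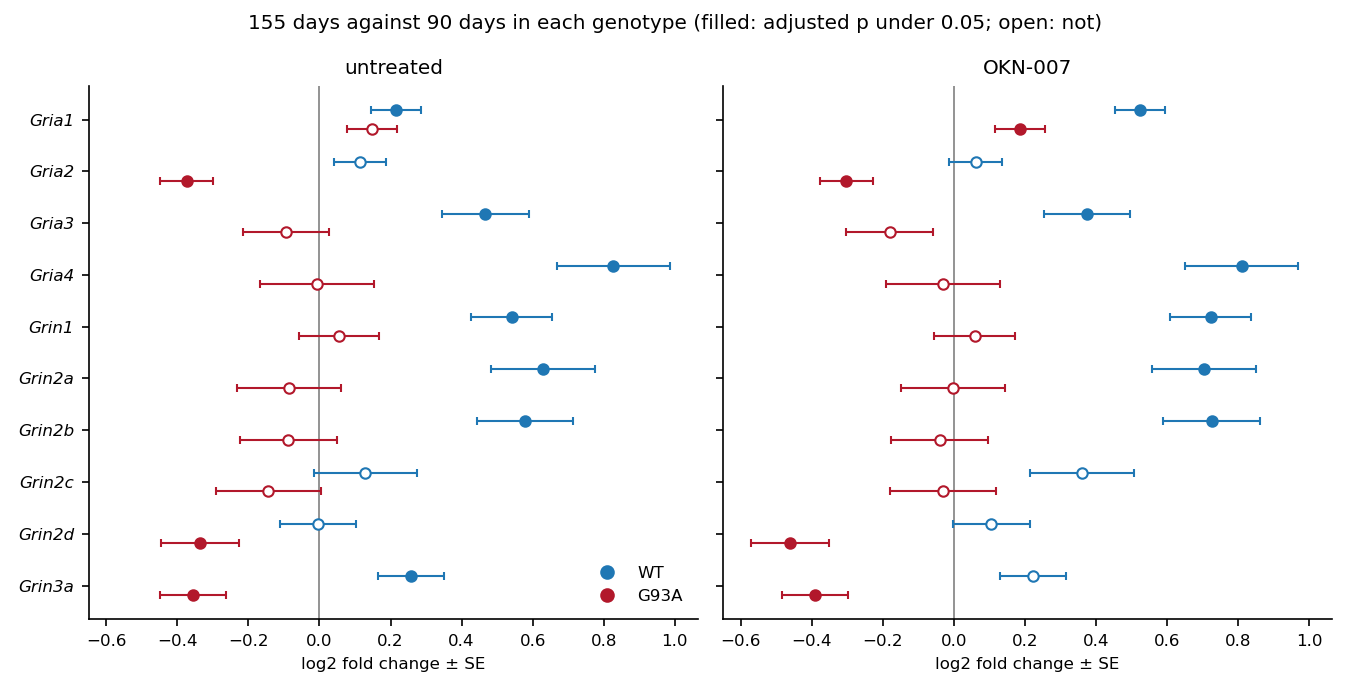
Log2 fold change of 155 against 90 days with its standard error (horizontal axis) for each gene in untreated mice (left) and OKN-007 treated mice (right). WT mice are in blue and G93A mice in dark red, with filled points past the threshold. The 7 filled untreated WT points lie between 0.21 and 0.83, and the 3 filled untreated G93A points between -0.37 and -0.34.

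The difference between the genotypes changed with age for 7 of the 10 genes in untreated mice, by the genotype by age interaction (8.34% of all genes were called lower), and for 9 of the 10 in treated mice (9.97%). The interaction was largest for Gria4, at -0.83 (SE 0.23) in untreated and -0.84 (SE 0.23) in treated mice, and Grin2c passed in neither. Grin3a had the same value in both, -0.61 (SE 0.13, edgeR adjusted p = 0.000911 and 0.000861). Without the mice of low caudal Hox score, an alternative chosen after seeing the data that leaves out 7 mice, 2 and 3 genes passed. Gria4 itself missed the threshold in both, with an interaction of -0.77 and -0.78 (adjusted p = 0.0679 and 0.0790).

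Levels of different genes were compared as CPM per kb of exon, with the exons of all annotated transcripts joined. In untreated WT mice at 155 days Grin1 was highest at 34.8 CPM per kb, followed by Gria1 at 28.6, Gria4 at 24.2, Gria2 at 16.5 and Gria3 at 11.7. Gria1 and Gria4 overlapped between mice, as did Gria2 and Gria3. Then came Grin2d at 5.70 and Grin2c at 4.24, which overlapped, and Grin3a at 3.20, Grin2a at 2.49 and Grin2b at 2.43 CPM per kb, of which each overlapped with the next. Grin2a, Grin2b and Gria2 have long exons, at 17.9, 24.8 and 15.5 kb, which lowers their levels on this scale. Exons of Gria1 and Gria4 cover 6.04 and 6.31 kb. In CPM, Gria2 stood above both in these untreated WT mice, at 257 beside 173 for Gria1 and 153 for Gria4. In untreated G93A mice at 155 days the order began with Gria1 at 26.3 and Grin1 at 23.1 CPM per kb, whose mice overlapped, then Gria4 at 12.5 and Gria2 at 11.6.

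Summed over the 4 AMPA genes, the level at 155 days was 81.1 ± 7.15 and 81.8 ± 2.90 CPM per kb in untreated and treated WT mice and 58.1 ± 4.56 and 59.6 ± 3.58 CPM per kb in untreated and treated G93A mice (SD, n = 4 each). No G93A mouse reached the lowest WT mouse, at 71.8 CPM per kb. The 6 NMDA genes summed to 52.9 ± 0.890 and 52.6 ± 5.20 in WT and to 35.4 ± 4.83 and 32.8 ± 2.61 CPM per kb in G93A mice in the same order. At 90 days the group means of the AMPA sum lay between 58.9 and 62.5 CPM per kb and those of the NMDA sum between 35.0 and 39.7.

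The mix of AMPA genes differed at 155 days. Gria1 made up 35.5 ± 5.72% of the summed AMPA level in untreated WT and 45.4 ± 2.71% in untreated G93A mice, and Gria4 made up 29.8 ± 3.51% and 21.3 ± 3.04% (SD, n = 4 each). The mice of the genotypes did not overlap in either share. The Gria2 share was 20.3 ± 1.003% and 20.1 ± 0.971%, with full overlap, and Grin1 made up 65.9 ± 2.10% and 65.2 ± 2.58% of the NMDA level. These are shares of levels per kb, where the long exons of Gria2 lower its share. At 90 days the Gria4 share was 21.9 ± 3.48% in untreated WT mice, close to the share in G93A mice at either age.

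The ratio of Gria2 to Gria1 was tested within libraries, which frees it from library scaling. At 155 days the mean log2 ratio of counts was 0.57 ± 0.30 in untreated WT and 0.19 ± 0.07 in untreated G93A mice (SD, n = 4 each), a difference of -0.39. The groups did not overlap, which gives the smallest p that 4 mice against 4 allow (exact permutation test, two-sided, p = 0.0286), and the adjusted p over the 8 ratio tests was 0.229. In treated mice the difference was -0.07 (exact permutation p = 0.343). At 90 days the differences were 0.04 and -0.05 (exact permutation p = 0.657 and 0.457). The ratio of Grin2b to Grin2a differed by 0.04 and -0.04 at 155 days (exact permutation p = 0.571 and 0.543) and by 0.01 and -0.01 at 90 days (exact permutation p = 0.857 and 0.943), within the spread of the mice at all 4.

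Neuron markers were lower in G93A mice at 155 days, as the subunit genes were. Of 10 neuron markers 9 were lower in untreated G93A mice at 155 days, with a median log2 fold change of -0.52 beside -0.54 for the subunit genes, and their summed level was 6997 to 7723 CPM in untreated WT and 4486 to 5605 CPM in untreated G93A mice. Rbfox3, the neuronal nuclear antigen, went from 220 ± 6.80 to 146 ± 6.08 CPM (SD, n = 4 each). Of 8 motor neuron markers 7 were lower (median -0.76), and the largest decrease among them was a log2 fold change of -2.60. Chat, which makes acetylcholine, was at -0.41, a smaller decrease than the median, and at -0.99 in treated mice. All 7 inhibitory interneuron markers were lower (median -0.49), including Gad1, a GABA-making enzyme, at -0.39, and 3 of 7 excitatory interneuron markers were (median -0.48), including Slc17a6, a vesicular glutamate transporter, at -0.91. None of the neuron, motor neuron and interneuron markers was at 0 in any untreated mouse of this age.
Of 8 microglia markers 8 were higher (median 2.18; summed level 172 to 210 CPM in untreated WT and 767 to 1381 CPM in untreated G93A mice), as were 6 of 8 astrocyte markers (median 0.43), 5 of 7 markers of oligodendrocyte precursors (median 0.42), 2 of 7 oligodendrocyte and 3 of 7 Schwann cell markers (medians 0.03 and 0.35). Of all genes tested, 21.3% were called higher and 18.2% lower in this comparison. Endothelial markers had 0 of 6 called by edgeR, with 2 at an unadjusted p under 0.05, and liver genes 0 of 5, with 1 (47.2% of all genes). Of 5 stress and RNA-quality genes 4 were higher (median 1.04), and 7 of 11 caudal Hox genes were lower (median -2.50). The part of any of these in the subunit changes was not tested.

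The subunit genes were also set beside the neuron markers mouse by mouse, as the log2 CPM of a gene minus the mean log2 CPM of the 10 neuron markers, described without a test. On this scale most genes stood higher in G93A mice at 155 days, where the neuron markers themselves were lower: every G93A mouse lay above every WT mouse in 53.7% of all genes in untreated and 67.2% in treated mice, and below in 0.819% and 1.03%. In untreated mice Gria1 was higher in G93A than in WT mice by 0.44 with no overlap, and the other 9 genes overlapped between genotypes, from -0.41 for Gria4 to 0.16 for Grin2c. In treated mice Gria1 and Gria2 were higher by 0.42 and 0.35 with no overlap, and the other 8 overlapped, with Gria4 at -0.24. Grin1 had -0.05 in both. At 90 days all 10 overlapped in untreated mice, where 1.03% of all genes were higher and 0.72% lower without overlap. In treated mice of that age Gria1 and Grin3a were higher in G93A mice by 0.18 and 0.23 with no overlap, as were 1.8% of all genes, and 0 of the 10 were lower (0.64%).

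**Figure D4:**
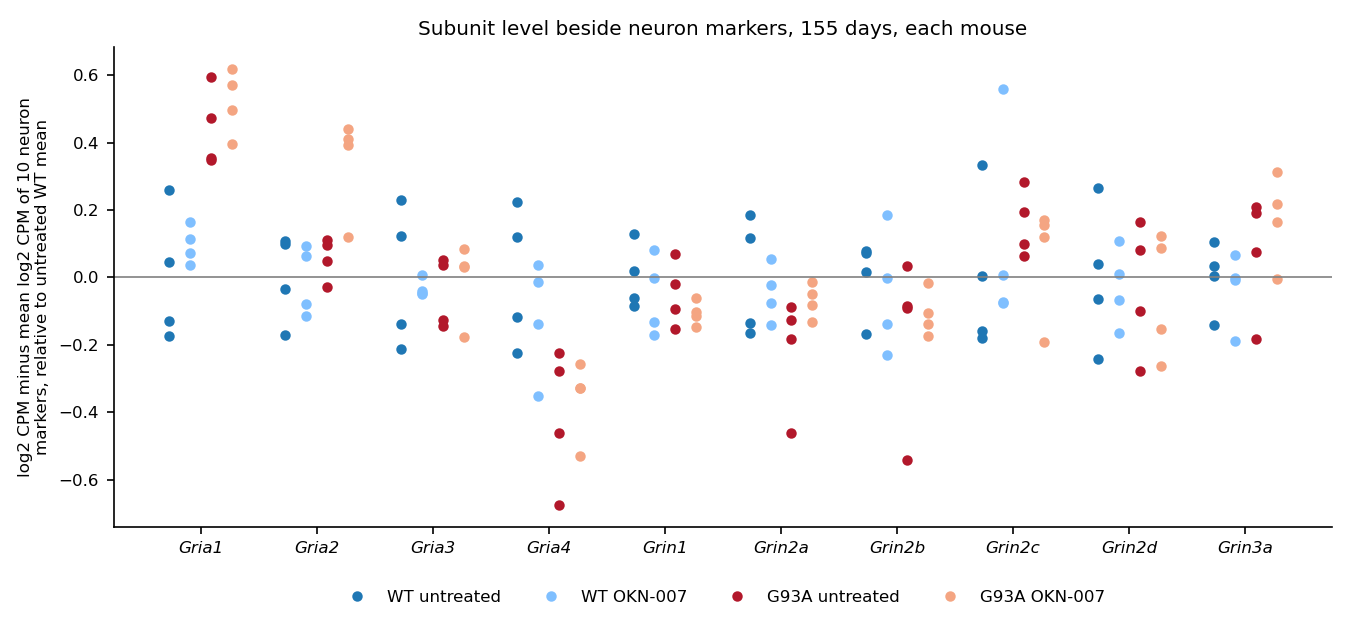
Log2 CPM of each subunit gene minus the mean log2 CPM of 10 neuron markers, for each mouse at 155 days, set to 0 at the mean of untreated WT mice (vertical axis). Gria1 lies higher in all G93A mice than in WT mice of the same treatment, by 0.44 and 0.42, as do 53.7% and 67.2% of all genes, and Gria4 averages 0.41 lower in untreated and 0.24 lower in treated G93A mice with overlapping points.

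Genes that work with these receptors were also lower in untreated G93A mice at 155 days. Of 8 other ionotropic glutamate receptor genes 5 were lower (median log2 fold change -0.30). Grin3b, the other Grin3 gene, which is known from motor neurons, had the largest decrease, from 6.90 ± 0.652 to 2.60 ± 0.310 CPM (SD, n = 4 each; log2 fold change -1.36, SE 0.23, edgeR adjusted p = 0.000104), and Grik1, a kainate receptor gene, came next (-0.44). Of 7 metabotropic glutamate receptor genes 6 were lower (median -0.61), including Grm8 (-0.81).
Of 14 AMPA and kainate auxiliary subunit genes 9 were lower and 1 higher (median -0.37). Cacng2, the stargazin gene, which carries AMPA receptors to the synapse, went from 167 ± 8.29 to 115 ± 9.02 CPM (log2 fold change -0.49, SE 0.09, edgeR adjusted p = 0.000296), and the largest decreases were those of Neto1 (-0.60) and Gsg1l (-0.59). Of 16 scaffold and anchor genes 10 were lower (median -0.35), including Nptx1, a secreted pentraxin that clusters AMPA receptors (-0.65), Grip2 (-0.64) and Dlg4, the main postsynaptic density scaffold (-0.35).
Of 7 genes for RNA editing and for handling of NMDA co-agonists 5 were lower and 1 higher (median -0.39). Adarb1, the enzyme that edits the Gria2 transcript, went from 207 ± 25.1 to 129 ± 24.6 CPM (log2 fold change -0.63, SE 0.13, edgeR adjusted p = 0.000882). Dao, which degrades D-serine, was lower (-1.22, edgeR adjusted p = 7.12e-06), and Shmt1, a glycine-serine converting enzyme, was higher (1.33, edgeR adjusted p = 0.00227). Editing itself was not measured by these counts.

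**Figure D5:**
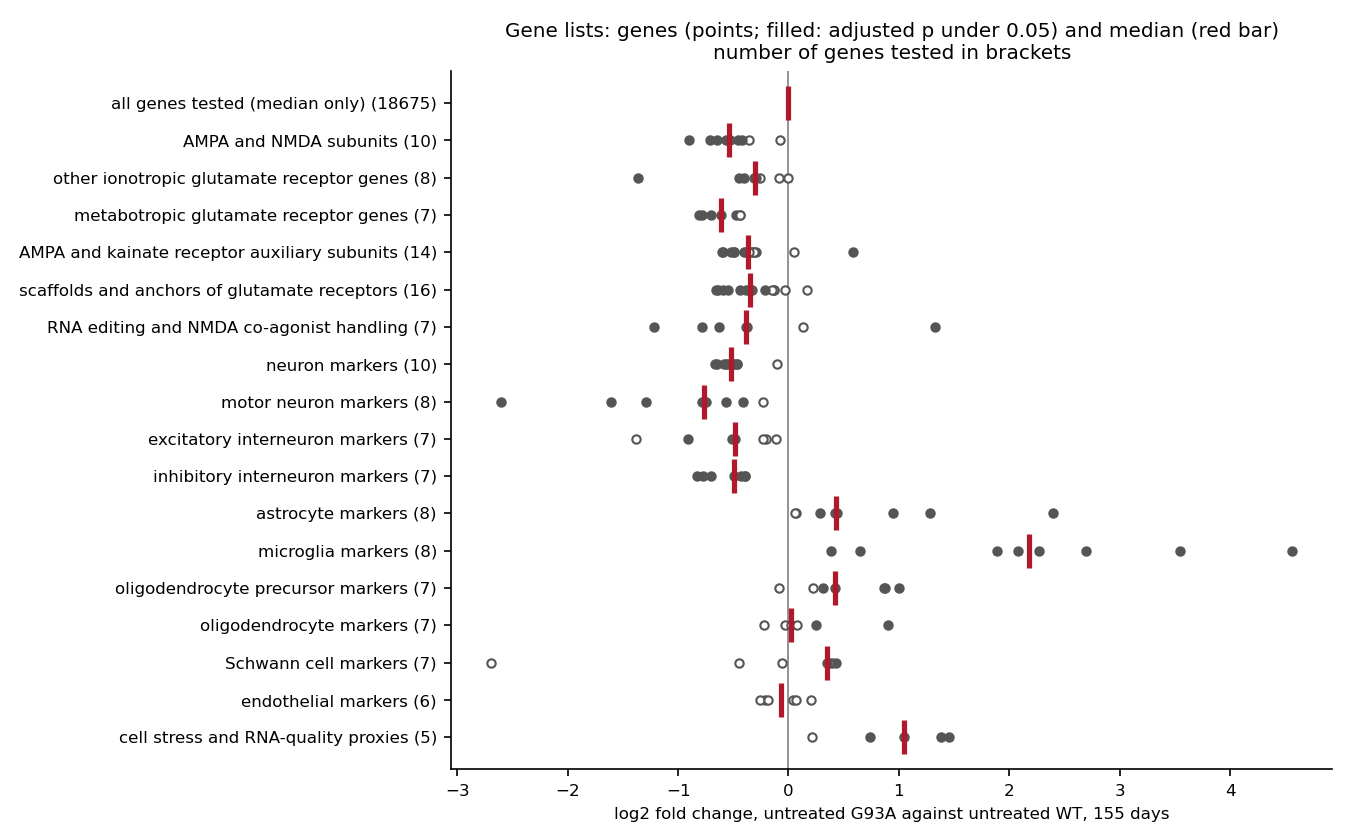
Log2 fold change of untreated G93A against untreated WT mice at 155 days (horizontal axis) for each gene of the lists (points, filled where the adjusted p is under 0.05) with the median of the list as a red bar. The medians of the subunit genes (-0.54), metabotropic receptors (-0.61) and neuron markers (-0.52) lie to the left of 0, and those of microglia (2.18) and astrocyte markers (0.43) to the right.

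In treated mice at 155 days the counts of the receptor lists were close to those above: 5 of 8 other ionotropic receptors, 6 of 7 metabotropic receptors, 9 of 14 auxiliary subunits and 9 of 16 scaffolds were lower. Neto2, an auxiliary subunit gene, was higher (log2 fold change 0.91, SE 0.12, edgeR adjusted p = 3.99e-06), and Cacng2 was lower (-0.66). At 90 days in untreated mice edgeR called 0 genes in each of these lists, with medians between -0.08 and 0.00, and 1 gene at an unadjusted p under 0.05 among the scaffolds.
In untreated WT mice inhibitory interneuron markers rose with age in 5 of 7 genes (median 0.58), as the subunit genes did, while neuron markers had 2 of 10 higher and 1 lower (median 0.13) and oligodendrocyte markers 7 of 7 lower (median -0.61). In untreated G93A mice 7 of 10 neuron markers and 5 of 7 oligodendrocyte markers fell with age (medians -0.42 and -0.47).

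Across the 32 mice the subunit genes resembled one another in part. These Pearson correlations of log2 CPM are descriptions over mice of 8 groups that share scaling and tissue composition. Gria4 and Grin2a had r = 0.949, and 0.845 after the group means were removed, Grin2a and Grin2b had 0.947 and 0.8292, and Gria3 and Gria4 had 0.916 and 0.831. Gria1 and Gria2 had -0.02 and -0.01. Of all other genes tested, the one most like Grin1 was Slc32a1, the vesicular inhibitory amino acid transporter (r = 0.982), the one most like Gria4 was Magi3 (0.975), and the one most like Grin2a was Nalcn, a sodium leak channel (0.969). For the other 7 genes the nearest gene had r between 0.862 (Pam, for Gria1) and 0.968 (Mtus2, for Grin2b).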

How the data were processed

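Spinal cord RNA of 32 mice (4 in each of 8 groups, taken from the sample titles) was measured by RNA-seq with a stranded mRNA kit. The authors deposited raw read counts per gene, not normalized. Their paper names Trimmomatic, STAR, GRCm38, HTSeq and GENCODE M10, while the submitters' processing notes name FastQC, STAR, featureCounts, edgeR, hg38 and GRCm39/mm39, so the build and counter are uncertain and no coordinates from the table's own build are given (the 3 promoter positions are those of RefSeq on GRCm38.p6). Of 42524 genes, 41218 were paired with a symbol through GENCODE M21. A wrong or older annotation could change the reads assigned to a gene in all mice alike.

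Within each age, 16 mice in 4 groups were fitted in edgeR 4.0.16 (R 4.3.3; filterByExpr, TMM, glmQLFit and glmQLFTest with defaults), leaving 18899 genes at 90 and 18675 at 155 days. Age comparisons and genotype by age interactions used all 32 mice and 19829 genes. Tests were two-sided, with Benjamini-Hochberg adjustment over all genes tested and a threshold of 0.05. Standard errors are the log2 fold change divided by the square root of its F statistic. CPM were scaled by TMM over the 32 mice. Ratios of 2 genes (0.5 counts added) were tested by exact permutation over mice, with adjustment over 8 tests. The labels do not say that mice shared a litter or batch, and p-values measure the spread between these mice. The closest pair of libraries in a group differed by a chi-square of 3.57 per gene, so each counted as a separate sample. Depth was 19701722 to 30138257 counts per mouse, where 3 counts in the smallest library equal 0.152 CPM, counting error only.

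On simulated counts for the untreated genotype comparison at 155 days (18575 genes, 4 mice per group), 70% of 2-fold and 94% of 4-fold changes were recovered, and 6.29% of calls were false. Only 100 genes were changed at each fold, equally up and down, where the real comparison called 39.5% of genes. No change under 2-fold was simulated, so these rates do not describe the subunit changes, which were all smaller than that. Alternatives included edgeR's likelihood ratio test, DESeq2 1.42.0, RLE and upper quartile factors, library size alone, 2 other filters on low counts, robust dispersions, an adjusted p under 0.10, the caudal Hox score as a covariate, other sets of mice, a replicate block and leaving out each mouse. Leaving out mice over 50 CPM of Alb or with a Hox score (mean log2(CPM + 1)) under 1 was chosen after seeing the data. The 10 genes and all gene lists were chosen with earlier results of these data known. Beside the 10 genes, the text names the genes with the 2 largest changes of a list past the threshold, a few named for their function, and the gene most correlated with each of the 10 (log2 CPM, prior count 2). A gene that this rule also names is not reported here.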

Additional observations from a re-analysis of the deposited data

Results flagged for a closer look

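In 6 of the 80 sets of 4 mice (10 genes in 8 groups), 1 mouse lay far from the other 3 by Dixon's test, where chance gives about 4. Gria4 reached 113 CPM in 1 untreated WT mouse at 90 days. Grin1 was at 148 CPM in the lowest treated WT mouse at 90 days and at 348 CPM in the highest untreated WT mouse at 155 days, where the other 3 were almost level. Grin2c had a high mouse in 3 WT groups, at 20.7 CPM in treated mice at 90 days and at 26.1 and 32.8 CPM in untreated and treated mice at 155 days.

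The difference between G93A and WT mice changed between 90 and 155 days by the genotype by age interaction. In untreated mice the interaction on the log2 scale was -0.49 for Gria2, -0.56 for Gria3, -0.83 for Gria4, -0.49 for Grin1, -0.72 for Grin2a, -0.67 for Grin2b and -0.61 for Grin3a. In treated mice it was -0.34 for Gria1, -0.36 for Gria2, -0.56 for Gria3, -0.84 for Gria4, -0.66 for Grin1, -0.71 for Grin2a, -0.77 for Grin2b, -0.57 for Grin2d and -0.61 for Grin3a. Ages were separate cohorts, and the part of cohort, caudal Hox level or cell mix in these interactions was not tested beyond the alternatives given below.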

How the results depend on the processing

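At 155 days the number of the 10 genes lower in G93A mice was 7 to 9 untreated, 6 to 10 treated and 8 to 10 with treatments averaged over all alternatives, and the lowest count of each came from the caudal Hox covariate. Leaving out each mouse in turn gave 8 in every fit untreated, 8 to 9 treated and 9 to 10 averaged. The same fits gave 5 to 8 and 8 to 9 genes for the genotype by age interaction in untreated and treated mice, 5 to 7 and 5 to 7 for age in untreated and treated WT mice, and 2 to 3 and 3 to 3 for age in untreated and treated G93A mice. All other comparisons had 0 genes in every alternative. The interaction count of 5 came without G93A mouse 12 at 90 days or mouse 11 at 155 days. Grin1 lost its untreated interaction in 7 of 16 such fits, and the age call of Gria1 in treated G93A mice was lost in all 8.

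Without the 7 mice with a caudal Hox score under 1, the interaction counts were 2 untreated and 3 treated, and 1 gene changed with age in treated G93A mice. These fits hold fewer mice. Gria1 in untreated mice at 155 days was 0.032 with the Hox covariate and ran from -0.12 to 0.027 without each mouse. The log2 ratio of Gria2 to Gria1 differed by -0.48 to -0.29 untreated and by -0.12 to -0.04 treated without each mouse, and that of Grin2b to Grin2a by 0.01 to 0.10 and by -0.08 to 0.00. Of the single values, 34 of 800 lost their call without a mouse, and 44 lost and 21 gained it under the other alternatives. These single values do not cover every gene in every comparison. Among them, the gained calls were those of Grin2c untreated and of Gria1 treated and averaged. Genes outside them also gained calls, since the age count in treated WT mice rose from 6 to as many as 7 without a mouse.

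Over all genes, the averaged genotype comparison at 90 days called 5 by edgeR, 66 by DESeq2, 64 by the likelihood ratio test, 110 without a filter and 21 with all 32 mice, and the Hox covariate moved the 155-day counts from 7378 to 4499 untreated, 7747 to 4988 treated and 10211 to 6090 averaged. Upper quartile factors moved the median of all genes with age in untreated G93A mice to -0.10. Replicate numbers are shared only between ages. Deviations of same-numbered mice correlated between -0.215 and 0.133, so no pairing by number was seen in the counts. Such correlations cannot show whether these mice shared a litter or batch. With a replicate block the interaction counts were 7 and 9 and the age counts 7, 6, 3 and 4, as without it.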
